A study of Rattus norvegicus with 2 samples.

Results

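The genes described here are 9 genes of fatty acid synthesis, lipid droplets, lipolysis and adipocytes, namely Thrsp, Fasn, Acly, G0s2, Pnpla2, Lipe, Cidec, Adipoq and Fabp4. They were chosen by gene symbol in the probe annotation of the array, and every probe with one of these symbols is given. Of the 9 genes, 8 had a named probe, with 9 probes in all, out of 13337 genes and 13793 named probes on the array. Fasn, the fatty acid synthase, had no named probe here and was not analysed. The choice was made with the EA and Mock signals of these same arrays known, so the differences of these genes are a description and no test is given.

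The study measured skeletal muscle RNA of male Wistar rats, 8 to 10 weeks old, on rat bead arrays made by Illumina, which give 1 fluorescence intensity per probe and array. The EA sample (electroacupuncture) came from rats with diabetes induced by streptozotocin, which destroys the insulin-secreting beta cells, needled at ST36 (Zusanli) on the lower leg with 32 gauge needles 1.27 cm long, for 5 min before 60 min of current at 15 Hz and 10 mA. The Mock sample carries the same description of diabetes and treatment, and what its rats received instead is not stated. Which muscle was taken, how long after the current, and how many rats stand behind each sample are not stated either. Each group had 1 array, so a difference between EA and Mock has neither a replicate check nor an error or a test, and the precision is limited by the number of arrays.

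Fatty acids made from citrate in the cytosol are joined to glycerol as triglyceride, stored in lipid droplets, and released again by a chain of lipases. Insulin promotes synthesis and storage and restrains lipolysis. In muscle, droplets lie inside the fibres, while adipocytes lie between the fibres and carry their own set of lipid genes. In bulk RNA, fewer cells of a type and less RNA per cell cannot be told apart.

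Detection means a detection p-value under 0.01, so that a share of less than 0.01 of background probes was at least as bright. By this call 32.1% of all probes were detected on the EA array, against 30.7% on the Mock array. The median intensity of undetected probes, used below as the background level, was 125 on the EA array, against 120 on the Mock array. Differences are log2 normalized signals, EA minus Mock, after background correction and quantile normalization. Among the 5047 genes detected on both arrays the median difference was -0.06. Probes of 1 gene scattered in this difference with an SD of 0.25 per probe, over 60 pairs of probes. That scatter leaves out the variation between animals.

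Of the 9 genes, 7 were detected on both arrays, Adipoq was detected on neither, and Fasn had no named probe. Thrsp was the 1 gene at least 2-fold lower with EA, and none was at least 2-fold higher. Among the 5047 genes, 0.456% were lower by at least 2-fold and 2.08% higher, 2.54% in all. At 1.5-fold, 2 of the 7 genes, Thrsp and G0s2, were lower, against 3.88% of all genes, and none was higher, against 6.28%, or 10.2% in either direction. The 7 differences had a median of -0.16, against -0.06 for all genes, and 5 of them lay below 0, as did 58.5% of all genes. The median is the value of Lipe, 1 of those 5, whose sign is not shared by its non-normalized intensities. These counts describe genes picked with this comparison in view and are not read further.

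**Figure D1:**
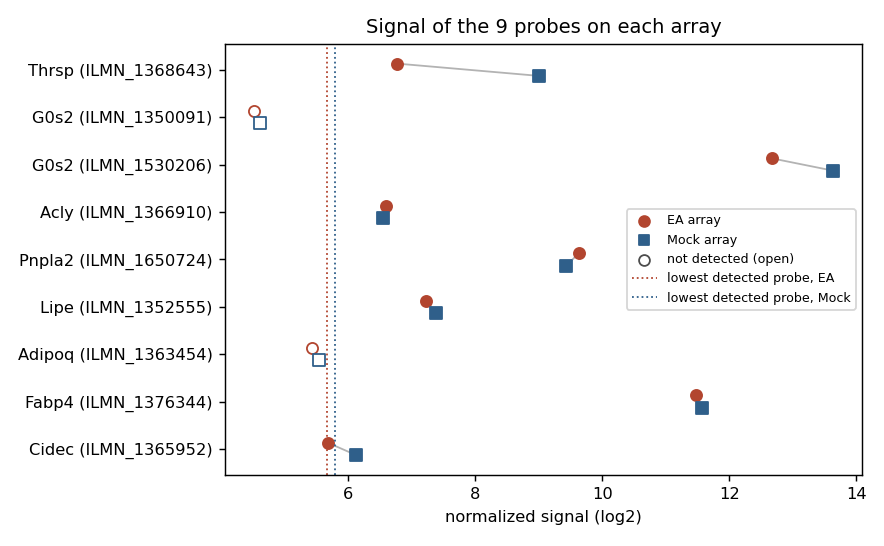
Normalized signal (log2) of each of the 9 probes on the EA array (circles) and the Mock array (squares), with open symbols where the probe was not detected and dotted lines at the lowest signal of any detected probe on each array. The wide gaps are those of Thrsp (6.76 on EA, 9.0 on Mock) and of the bright G0s2 probe (12.67 on EA, 13.64 on Mock), and levels of different probes are not comparable with each other.

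In fatty acid synthesis, the regulator Thrsp differed by far more than the enzyme gene Acly. Thrsp encodes Spot14, a small nuclear and cytosolic protein that promotes fatty acid synthesis and is induced by thyroid hormone, insulin and carbohydrate. Its only probe, ILMN_1368643, had an intensity of 223 on the EA array, against 598 on the Mock array. These were 1.78 times the background level on the EA array, against 4.99 times on the Mock array, and the probe was detected on both. The normalized log2 signals were 6.76 on the EA array, against 9.0 on the Mock array, a difference of -2.24 or 4.71-fold lower on the EA array. On the EA array the probe lay 1.10 above the lowest signal of any detected probe, so the size of the fold depends on the background correction. Without that correction the difference was -1.53, or 2.89-fold lower, and the authors' deposited values, 332 for EA and 960 for Mock, also gave 2.89-fold lower. In all 8 alternative ways of processing, Thrsp was at least 2-fold lower with EA, with differences from -2.30 to -1.53. Some of these could not differ, here and below. A looser or absent detection filter and a mean over detected probes leave a gene with 1 detected probe unchanged.

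Acly, the ATP citrate lyase that turns cytosolic citrate into the acetyl-CoA used for fatty acids, had an intensity of 211 on the EA array, against 189 on the Mock array. Its single probe, ILMN_1366910, was detected on both arrays but lay at only 1.68 times the background level on the EA array, against 1.58 times on the Mock array. The log2 signals of Acly were 6.60 on the EA array, against 6.54 on the Mock array, a difference of 0.06 that is smaller than the scatter between probes. With each array scaled to its 75th percentile over the probes detected on both arrays, the difference of Acly was 0.26. The stretches before the annotated starts of Thrsp and Acly are shown because they let a regulator and an enzyme of the same pathway be set side by side.
Thrsp: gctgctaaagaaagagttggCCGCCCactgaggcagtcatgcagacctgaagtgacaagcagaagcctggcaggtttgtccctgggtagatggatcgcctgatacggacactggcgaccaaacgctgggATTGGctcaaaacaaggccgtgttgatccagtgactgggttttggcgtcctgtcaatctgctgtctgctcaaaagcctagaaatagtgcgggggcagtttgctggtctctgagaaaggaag
Acly: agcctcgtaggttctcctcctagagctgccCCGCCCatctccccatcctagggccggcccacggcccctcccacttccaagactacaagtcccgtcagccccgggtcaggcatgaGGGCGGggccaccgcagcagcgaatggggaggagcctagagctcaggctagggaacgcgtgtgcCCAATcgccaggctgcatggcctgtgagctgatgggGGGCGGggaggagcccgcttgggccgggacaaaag
These are the 250 bases before each gene's start in RefSeq (assembly GRCr8), read 5′ to 3′ on the gene's own strand. For Thrsp they are chr1:161138965-161139214 and for Acly chr10:85963632-85963881, both on the minus strand. Capitals mark matches to 5 motifs searched on both strands, and no match overlapped a match to another motif. Windows of 300 bases, from 250 before to 50 after the start, were searched in all 33469 promoters of the table. The E-box (CACGTG) was found in 6.42% of them, the CCAAT box (CCAAT) in 37.5%, the TATA box (TATAAA) in 14.2%, the GC box (GGGCGG) in 33.1% and the core of the sterol response element (TCACNCCAC) in 1.12%. The Thrsp window held 1 GC box and 1 CCAAT box, both as the reverse complement. The Acly window held 3 GC boxes and 1 CCAAT box. Neither window held the E-box, the TATA box or the sterol response core, which says only that these letters are not there.

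Thrsp stood at rank 4 from the lowest among the differences of the 5047 genes detected on both arrays. Over these 2 arrays the genes next to it in that order were Tnnc1 (-3.25), Myh7 (-3.60) and Rpl30 (-3.63) below it, and Myoz2 (-1.99), Fbp2 (-1.72) and Tnmd (-1.64) above it. These values and ranks move with the processing. Without background correction Thrsp stood at rank 6, Tnnc1 differed by -2.14 and Tnmd by -0.82, which is inside 2-fold. The authors' deposited values put Myh7 at -2.73. At a detection p-value under 0.05 Thrsp stood at rank 7 of 5717 genes, and with no filter on detection at rank 7 of 13337. Rpl30 encodes a cytosolic ribosomal protein, Fbp2 the fructose-bisphosphatase of muscle and Tnmd a membrane protein of tendon. Of these 6 neighbours 3 are markers of slow muscle fibres. They are Tnnc1, the slow and cardiac troponin C, Myh7, the slow myosin heavy chain, and Myoz2, which sits at the Z-disc of slow fibres. The list of these markers covers 4 of the 5047 genes and was chosen with earlier results of these data known. Of 8 slow fibre markers listed, 4 were detected on both arrays and all 4 were lower on the EA array, 3 of them at least 2-fold, with a median of -2.62. Among all 5047 genes 58.5% lay below 0 and 0.456% were at least 2-fold lower, with a median of -0.06. A further 2 passed detection on the Mock array alone. The share of all genes that did so is not given here, so this count is not read further. After background correction Tnnt1 (slow troponin T) was at least 6.0-fold lower with EA, and Myl3 (slow myosin light chain) at least 8.48-fold lower. These bounds take the Mock signal over the lowest signal of a detected probe on the EA array. They hold for that correction only. Without it Tnnt1 was 2.76-fold lower and Myl3 3.51-fold lower, and with the deposited values 3.53-fold and 4.22-fold. The other 2 markers were detected on neither array. The brightest of the 4 detected on both arrays, the slow and cardiac calcium pump Atp2a2, differed by -0.81. The summed intensity of the 8 markers, which includes the background of those not detected, was 3031 on the EA array, against 7985 on the Mock array. Its largest parts on the Mock array were Atp2a2 at 2859, against 1699 on the EA array, and Myh7 at 2351, against 300. What part the slow fibre content of the samples had in the differences of Thrsp and G0s2 was not tested. The 9 other muscle markers that had a probe, of which 5 are genes of fast fibres, were all detected on both arrays and differed by -0.45 to 0.70. The brightest, the skeletal actin gene Acta1, differed by 0.15. The highest, picked out after its values were seen, was Myh4, the myosin heavy chain of the fastest fibres, 1.63-fold higher on the EA array and from 0.51 to 0.71 over the alternatives. The other fast fibre genes differed less, from -0.05 for Tnnt3 to 0.24 for Tnni2.

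**Figure D2:**
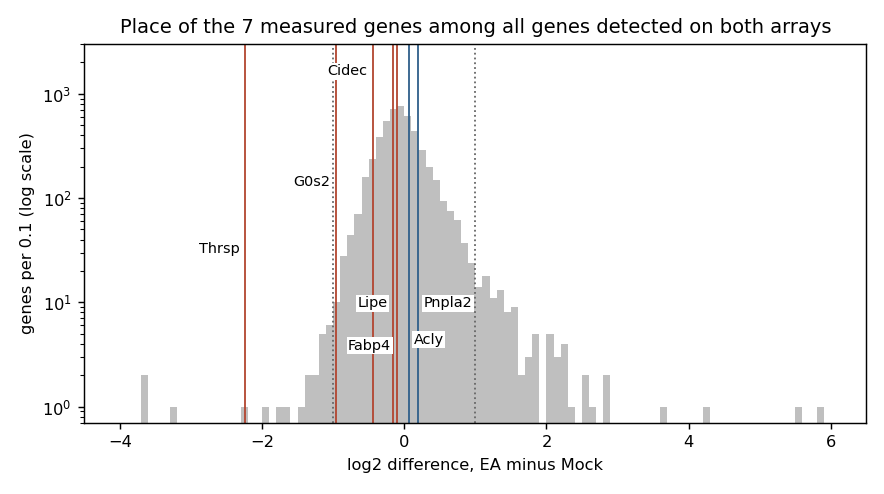
Histogram of the log2 difference, EA minus Mock, over the 5047 genes detected on both arrays (number of genes per 0.1 on a log axis), with vertical lines at the 7 measured genes and dotted lines at 2-fold. Thrsp lies in the sparse lower tail at -2.24 and G0s2 just inside the dotted line at -0.96, while Acly, Pnpla2, Lipe and Fabp4 lie in the bulk.

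Among the lipolysis genes, the inhibitor differed more than the lipases. G0s2 encodes a small protein that binds adipose triglyceride lipase and inhibits it. Its bright probe, ILMN_1530206, had an intensity of 6753 on the EA array, against 12573 on the Mock array, 53.9 times the background level on the EA array, against 104.9 times on the Mock array. The log2 signals of G0s2 were 12.67 on the EA array, against 13.64 on the Mock array, a difference of -0.96 or 1.95-fold lower on the EA array. This signal is far above background, and the difference of G0s2 moved little with the processing, from -1.11 to -0.85 over the 8 alternatives. It reached 2-fold in 1 of them, with each array scaled to its 75th percentile, where it was 2.16-fold lower. That scaling moved the median gene to -0.19, and relative to the median gene G0s2 differed by -0.92 with that scaling and by -0.91 with quantile normalization. In the order of all 5047 genes G0s2 stood at rank 29 from the lowest. Without background correction it stood at rank 10, and with no filter on detection at rank 54 of 13337 genes.

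The probes of G0s2 did not give the same picture. The second probe, ILMN_1350091, had an intensity of 103 on the EA array, against 106 on the Mock array, below the background level on both, with detection p-values of 0.937 on the EA array, against 0.824 on the Mock array. No fold is given for it, and the value of G0s2 rests on the bright probe alone.

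Pnpla2 encodes adipose triglyceride lipase itself, which takes the first fatty acid off triglyceride. Its probe, ILMN_1650724, had an intensity of 905 on the EA array, against 788 on the Mock array, 7.21 times the background level on the EA array, against 6.57 times on the Mock array. The log2 signals of Pnpla2 were 9.63 on the EA array, against 9.43 on the Mock array, a difference of 0.19, smaller than the scatter between probes and between 0.01 and 0.21 over the alternatives. Lipe, the hormone-sensitive lipase that acts on the diglyceride left by Pnpla2, had intensities of 263 on the EA array, against 261 on the Mock array with probe ILMN_1352555. After normalization its log2 signals were 7.22 on the EA array, against 7.38 on the Mock array, a difference of -0.16. The non-normalized intensities of Lipe were slightly higher on the EA array while the normalized signal was lower there, so no direction is read from Lipe.

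The same stretches for G0s2 and Pnpla2 are shown to set the inhibitor beside the lipase it binds.
G0s2: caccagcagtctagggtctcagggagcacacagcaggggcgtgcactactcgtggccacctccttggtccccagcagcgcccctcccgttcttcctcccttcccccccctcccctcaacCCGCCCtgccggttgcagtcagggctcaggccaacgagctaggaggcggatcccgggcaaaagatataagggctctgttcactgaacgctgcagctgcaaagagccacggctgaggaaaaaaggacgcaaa
Pnpla2: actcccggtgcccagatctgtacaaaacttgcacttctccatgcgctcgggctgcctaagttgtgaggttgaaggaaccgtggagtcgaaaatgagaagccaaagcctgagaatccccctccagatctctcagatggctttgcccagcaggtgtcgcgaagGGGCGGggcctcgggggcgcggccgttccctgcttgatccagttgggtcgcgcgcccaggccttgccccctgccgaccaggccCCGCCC
For G0s2 they are chr13:107335949-107336198 on the minus strand and for Pnpla2 chr1:205982029-205982278 on the plus strand (RefSeq, GRCr8), with the same motifs in capitals. The G0s2 window held 1 GC box and the Pnpla2 window 2, and neither held any of the other 4 motifs. The GC box, present in 33.1% of all promoters, was the only one of the 5 motifs found in all 4 windows printed here. RefSeq promoter windows matched 6 of the 9 genes. Those of Adipoq and Cidec are not printed because no fold is given for Adipoq and Cidec lay at the limit of detection.

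The droplet and adipocyte genes among the 9 all lay inside 2-fold or were not detected. Cidec, a protein that fuses lipid droplets in white adipocytes, had an intensity of 161 on the EA array, against 168 on the Mock array. Its probe, ILMN_1365952, passed the detection threshold narrowly, with detection p-values of 0.0097 on the EA array, against 0.00727 on the Mock array. The log2 signals of Cidec were 5.68 on the EA array, against 6.13 on the Mock array, a difference of -0.44, but the probe lay only 0.02 above the lowest detected signal on the EA array, and without background correction the difference was -0.17. Fabp4, the fatty acid binding protein of adipocytes, which capillary endothelium and macrophages also express, had intensities of 2956 on the EA array, against 3146 on the Mock array with probe ILMN_1376344. Its log2 signals were 11.47 on the EA array, against 11.57 on the Mock array, a difference of -0.11 that is smaller than the scatter between probes. Adipoq, the adipocyte hormone adiponectin, had intensities of 151 on the EA array, against 145 on the Mock array with probe ILMN_1363454, with detection p-values of 0.0255 on the EA array, against 0.0327 on the Mock array, so it was called detected on neither.

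Like most genes with a named probe, most adipocyte markers were not detected on both arrays. Of 15 adipocyte markers listed, 13 had a probe, 5 were detected on both arrays and 8 on neither. Over the whole array, 5047 of 13337 genes with a named probe were detected on both. Those not detected were Adipoq, Lep, Retn, Aqp7, Adrb3, Pparg, Cebpa and Ucp1, which include the hormones leptin and resistin and the adipocyte transcription factor PPARγ. The 5 detected had a median difference of -0.11, from -0.44 for Cidec to 0.85 for Cfd. Cfd, the complement protease adipsin secreted by adipocytes, had intensities of 1860 on the EA array, against 1070 on the Mock array, and was 1.80-fold higher on the EA array. The summed intensity of the 13 markers, which includes the background of the 8 not detected, was 6515 on the EA array, against 5801 on the Mock array. Without Cfd the other 12 summed to 4656 on the EA array, against 4732 on the Mock array. What part adipocytes had in the signal of the 9 genes was not tested.

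Other genes of the pathway were taken from 4 lists besides the adipocyte markers, and are given by counts of those detected on both arrays. Beside each count stands the share over all 5047 genes, 0.456% at least 2-fold lower and 2.08% at least 2-fold higher. For fatty acid synthesis and its regulators, 10 of 20 listed genes were measured, with Thrsp the 1 at least 2-fold lower, none at least 2-fold higher and a median of -0.04. The highest was the desaturase Fads1 at 0.23. Nr1h3, which encodes the oxysterol receptor LXRα, had intensities of 404 on the EA array, against 530 on the Mock array and was 1.52-fold lower on the EA array. Without background correction Nr1h3 was 1.38-fold lower, and with the deposited values 1.35-fold lower. Over all 5047 genes, 3.88% were at least 1.5-fold lower. Chosen after their values were seen, Mid1ip1, the close relative of Thrsp, differed by -0.07, and Srebf1, the sterol regulatory transcription factor that drives lipogenic genes, by -0.02, where the scaling to the 75th percentile of detected probes put Srebf1 at 0.00.

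Triglyceride synthesis had 6 of 15 listed genes measured, a median of -0.17, none at least 2-fold lower and 1 at least 2-fold higher. That was Lpin1, a phosphatidate phosphatase that makes diglyceride, with intensities of 441 on the EA array, against 253 on the Mock array, 2.05-fold higher on the EA array. Dgat1, which adds the last fatty acid to triglyceride, lay the other way with intensities of 516 on the EA array, against 780 on the Mock array, 1.73-fold lower on the EA array. Agpat2, an acyltransferase of the same pathway, picked out after its values were seen, was the 1 lipid gene detected only on the EA array and was at least 1.08-fold higher there, as its signal over the lowest signal of a detected probe on the Mock array.

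Lipid droplet proteins had 8 of 13 listed genes measured and a median of -0.22, with 2 at least 2-fold higher and none at least 2-fold lower. Plin2, which coats droplets in most cells outside adipose tissue, had intensities of 413 on the EA array, against 242 on the Mock array, 2.04-fold higher on the EA array. Fitm2, an endoplasmic reticulum protein of droplet formation, had intensities of 404 on the EA array, against 229 on the Mock array, 2.16-fold higher on the EA array. The other 6 lay below 0, as did 58.5% of all genes. Cidea, 1 of these 6, had intensities of 170 on the EA array, against 161 on the Mock array, so no direction is read from it.

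The folds of Lpin1, Plin2 and Fitm2 sit at the threshold and depend on the background correction. Without it their differences were 0.71 for Lpin1, 0.68 for Plin2 and 0.72 for Fitm2, and with the authors' deposited values 0.68, 0.67 and 0.73 in the same order. All 3 stayed higher on the EA array in each of the 8 alternatives.

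Lipolysis and its regulators had 6 of 15 listed genes measured and a median of 0.02, with none at least 2-fold different. G0s2 was the lowest, and Mgll, the monoglyceride lipase that ends the chain, was the highest at 1.56-fold higher on the EA array, with intensities of 205 on the EA array, against 157 on the Mock array. Without background correction the difference of Mgll was 0.27, against 0.64 with it. Abhd5, the coactivator of adipose triglyceride lipase, was detected on neither array and was picked out after its values were seen. Over the 5 lists together, without the 9 genes themselves, 26 genes were measured, with 3 at least 2-fold higher and none at least 2-fold lower. Among all genes 2.08% were higher by that much and 0.456% lower. The median of the 26 was -0.08, against -0.06 for all genes.

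**Figure D3:**
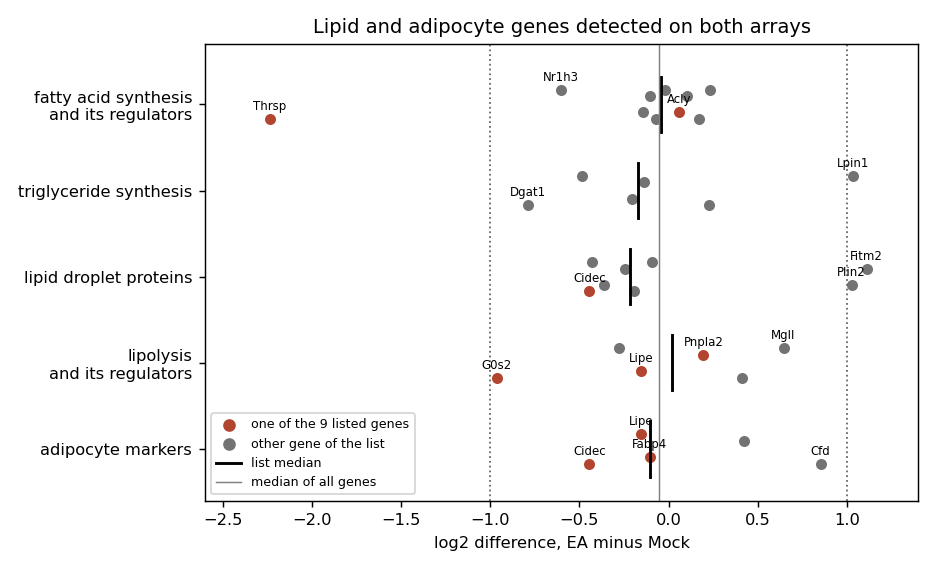
Log2 difference, EA minus Mock, of each gene detected on both arrays in the 5 lists (rows, with a vertical offset only to separate the points), with black bars at list medians, a grey line at the median of all genes and dotted lines at 2-fold. Thrsp at -2.24 is the only point past the lower line, and Lpin1, Plin2 and Fitm2 lie just past the upper one.

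**Figure D4:**
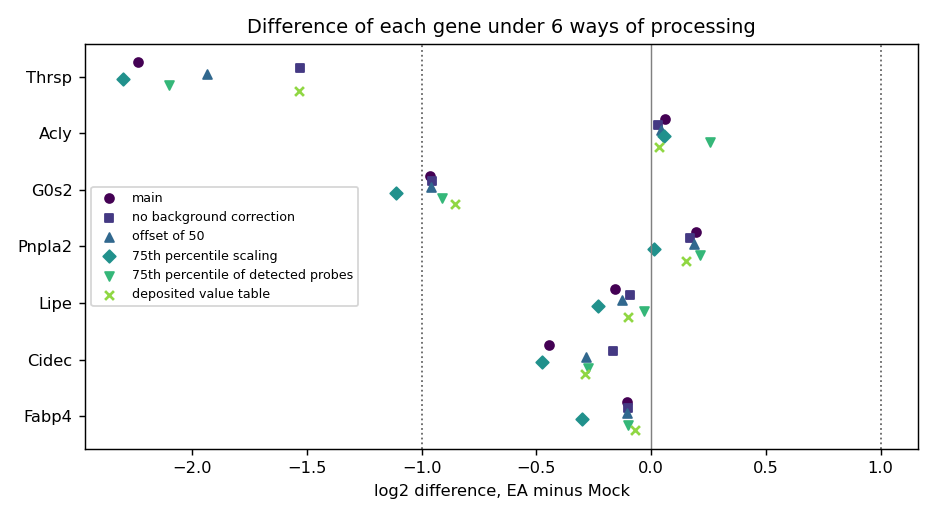
Log2 difference, EA minus Mock, of the 7 measured genes under 6 ways of processing the same arrays (symbols), with dotted lines at 2-fold. Thrsp spreads from -2.30 to -1.53 and stays past 2-fold throughout, G0s2 spreads only from -1.11 to -0.85, and the remaining genes stay inside 2-fold.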

How the data were processed

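Biotinylated cRNA was hybridised to Illumina rat arrays, per the labels' protocols. The authors deposited a non-normalized table with the intensity of 22523 probes and a detection p-value per probe and array, per the file headers. They also deposited a second table of intensity values, whose processing the sources used here do not give (medians of 138 for EA and 137 for Mock). From the first, background was corrected with nec in limma 3.58.1 (R 4.3.3; background from the detection p-values, offset 16), followed by quantile normalization and log2. Genes were named by the platform annotation, updated through RefSeq GRCr8 by gene ID (13752 probes) or accession (5), with 36 platform symbols kept. Each gene took its brightest probe detected on both arrays. The steps were tested on simulated data. The 9 genes and all lists were chosen with earlier results of these data known. Named genes were all 9 with every probe, other genes of the 5 lipid and adipocyte lists at least 1.5-fold different, the highest and lowest of each of these lists, the 3 neighbours of the most different gene on either side, and the brightest muscle and slow fibre marker. Of the alternatives, 7 were planned and 1 was added after seeing the data (scaling to the 75th percentile of probes detected on both arrays). Figures used Python 3.11.15 and matplotlib 3.10.9.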

Additional observations from a re-analysis of the deposited data

How the results depend on the processing

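Over the 8 alternatives, each of the 7 measured genes among the 9 kept the sign of its difference, and Thrsp was at least 2-fold lower with EA in each. The looser detection threshold, the absent filter and the mean over probes left all 7 differences unchanged, so they add nothing to that count. Scaling to the 75th percentile of all probes gave 2 of the 9 genes at least 2-fold lower instead of 1, with G0s2 added, and left 1 of the other lipid genes at least 2-fold higher instead of 3. That number was 0 without background correction, 0 with an offset of 50 and 0 with the deposited values. Among all genes, 105 were at least 2-fold higher and 23 at least 2-fold lower. The genes at least 2-fold lower numbered 8 without background correction, 36 with 75th percentile scaling (91 higher), 7 with the deposited values, 35 at a detection p-value under 0.05 and 47 with no filter on detection. The genes at least 2-fold higher numbered 53 if background was left uncorrected and 47 with the deposited values. Without background correction, Thrsp, Cidec, Fitm2, Lpin1, Plin2, Mgll and the neighbours Tnnc1, Tnmd, Myh7, Myoz2 and Rpl30 moved toward 0 by more than the scatter between probes. With the deposited values Thrsp, Fbp2, Fitm2, Lpin1, Plin2 and those 5 neighbours did, and with an offset of 50 Thrsp, Tnnc1 and Tnmd did. Signal over background limits Acly, Cidec and Adipoq most. No paired analysis was possible because each group has 1 array, and no replicate could be left out for the same reason.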
